A study of Mus musculus with 6 samples.

Results

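Imprinted genes are transcribed mainly from 1 parental copy, under the control of regions that carry a methylation mark on the copy from the egg or on that from the sperm. The marked copy is the silent one for some of these genes and the expressed one for others. Many of them act on fetal growth and on the brain, and paternally expressed members often promote growth while maternally expressed members often restrain it. In the hypothalamus they are known for roles in feeding, body weight and maternal behaviour. A set of 10 such genes was taken by name from the deposited gene table, comprising the ligand genes Igf2 and Dlk1, the receptor gene Igf2r, the signalling adaptor gene Grb10, the nuclear factor genes Peg3, Plagl1 and Ndn, and Snrpn, Peg10 and Mest. All 10 were among the 22048 genes of the table, and all 10 were among the 13952 genes with enough reads to be tested. Of the 10, 8 are known as paternally expressed, and Igf2r and Grb10 as maternally expressed in most tissues. Neural cells may differ from this, and Grb10, for one, is paternally expressed in neurons. The animals were inbred C57BL/6 and the reads were not split by allele, so only the sum of both copies was measured. In GRCm38.p6, Igf2, Peg3, Ndn and Snrpn lie on chromosome 7, Mest and Peg10 on chromosome 6, and Plagl1, Grb10, Dlk1 and Igf2r on chromosomes 10, 11, 12 and 17.

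RNA-Seq was performed on 3 HE and 3 NC samples of hypothalamic neural stem/progenitor cells (NSC/NPCs), which were grown as neurospheres to first passage from male fetuses of E14.5. Dams were C57BL/6 mice of 8 weeks. HE dams were gavaged with 100 μg/kg/d of estradiol valerate between E5.5 and E11.5, and NC dams with corn oil according to the treatment protocol, although the NC labels read untreated. Each sample held cells of 2 mice, no label ties a sample to a litter, and the p-values measure the spread between these samples. Reads counted on genes were between 16078675 and 19137059 per sample, so that 1 read on a gene of 1 kilobase was 0.0523 to 0.0622 RPKM (reads scaled to gene length and to the sample's total). In such bulk samples, fewer cells of a type and less RNA per cell cannot be told apart.

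The NSC/NPC label was checked against its markers. Sox2, a transcription factor of neural stem cells, was between 97.3 and 209 RPKM, and Nes, which encodes the filament protein Nestin, was between 154 and 247 RPKM. RNA of markers of other neural types was also present, and which cells made it was not tested. Under 1 RPKM in all samples were 7 of 18 neuronal, 1 of 12 oligodendrocyte lineage and 0 of 12 astrocyte markers listed. The astrocyte marker Gfap was between 195 and 754 RPKM, the oligodendrocyte lineage marker Olig2 between 97.7 and 182 RPKM, and the neuronal tubulin gene Tubb3 between 19.1 and 46.6 RPKM. HE3 stood apart from the other samples. It held the highest or the lowest RPKM of the 6 samples in 68.9% of all tested genes, against 17.2% to 40.5% for any other sample. It was the extreme sample for 10 of the 10 imprinted genes, the highest for 6 and the lowest for 4, and the fold change of each is therefore also given without it.

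No imprinted gene passed the threshold (limma, adjusted p under 0.05 and a log2 difference of 1 or more in either direction), and neither did any other gene (0% of 13952). This 0% is that of the limma fit on RPKM. The paper, with DESeq2 and the same cutoffs, reported differentially expressed mRNAs between these groups. Adjusted p-values of the 10 genes were between 0.195 and 0.598. By value, 6 were higher in HE NSC/NPCs compared with NC and 4 were lower, while 43.8% of all tested genes were higher. The median log2 fold change of the 10 was 0.31, beside -0.06 over all tested genes in the same fit. Without HE3 the median of the 10 was 0.13, and the median over all tested genes was not taken in that fit. At an unadjusted p under 0.05 there were 3 genes, Peg3, Snrpn and Ndn, each with higher values in HE, beside 8.68% of tested genes with higher and 11.8% with lower values at that p. Without HE3 there were 2 at that p, beside 2775 of the 13952 tested genes in either direction. The same 3 were the only ones of the 10 whose HE and NC samples did not overlap, beside 14.8% of tested genes with HE wholly above NC and 17.9% wholly below.

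**Figure D1:**
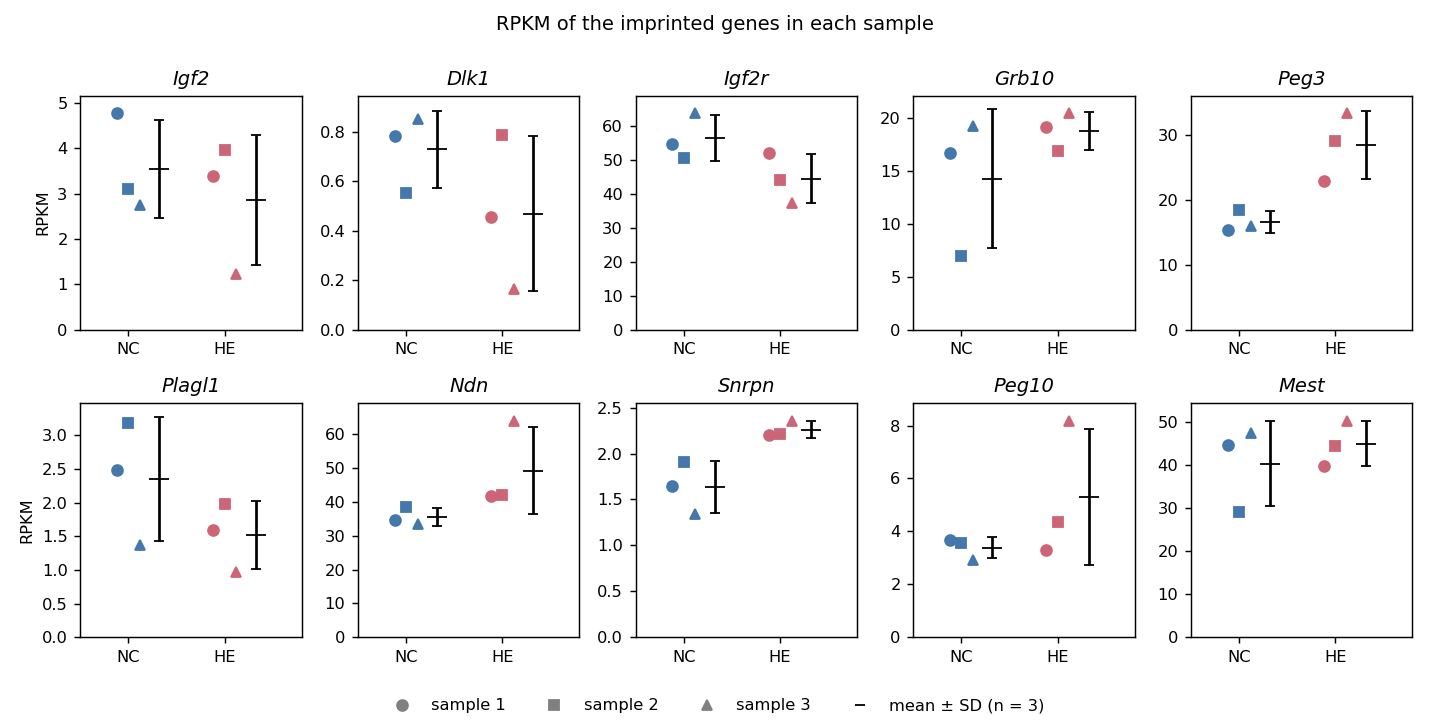
RPKM of the 10 imprinted genes (y axis, from 0, a separate scale for each gene) in the 3 NC and 3 HE samples, with the mean and SD of each group in black. HE and NC points separate for Peg3, Ndn and Snrpn, and the triangle of HE3 is the highest or the lowest point in every panel.

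The order of levels, which RPKM corrects for gene length, was led by Igf2r with a mean of 50.3 RPKM over the 6 samples, Mest with 42.6 RPKM and Ndn with 42.4 RPKM. These 3 genes lay above 90.7% to 92.3% of all tested genes. Peg3 had a mean of 22.5 RPKM and Grb10 of 16.6 RPKM. Peg10 with 4.34 RPKM, Igf2 with 3.20 RPKM, Snrpn with 1.95 RPKM and Plagl1 with 1.93 RPKM formed the lower group, and Dlk1 was the lowest with 0.599 RPKM. Between neighbours in this order, the samples' ranges were separate only between Ndn and Peg3 and between Plagl1 and Dlk1. All other neighbours overlapped in their ranges. Grb10 was nevertheless above Peg10 within each of the 6 samples, whereas the order of the remaining neighbours changed between samples.

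Both ligand genes were at low levels and overlapped between the groups. Igf2 encodes insulin-like growth factor 2, a fetal growth factor that in the brain is known mainly from choroid plexus and meninges. Its RPKM was 4.78, 3.11 and 2.75 in NC1, NC2 and NC3, and 3.39, 3.96 and 1.23 in HE1, HE2 and HE3. HE1 and HE2 lay inside the NC range, and HE3 alone lay below it. Its log2 fold change was -0.42 ± 0.44 (SE, n = 3 each, adjusted p = 0.575), with a 95% interval of -1.44 to 0.61. Without HE3 it turned to 0.08, so the lower mean of Igf2 rested on that sample.

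Dlk1 encodes a transmembrane protein of the Delta family that holds precursor cells from differentiating. Its RPKM was 0.782, 0.554 and 0.849 in NC1, NC2 and NC3, and 0.454, 0.788 and 0.165 in HE1, HE2 and HE3. HE2 was within the NC range, whereas HE1 and HE3 were below it. The HE3 value stood on 15 reads, against 46 to 91 reads in the other samples. The log2 fold change was -0.69 ± 0.44 (adjusted p = 0.364), and -0.22 without HE3. This fold is on the log2(RPKM + 0.1) scale used throughout, which understates differences of genes at so low a level.

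Markers of the cell types that are known to make Igf2 were set beside it. The summed RPKM of 20 mesenchymal, meningeal and perivascular markers was 173, 75.1 and 110 in NC1, NC2 and NC3, and 251, 216 and 124 in HE1, HE2 and HE3, and 15 of the 16 tested were higher in HE by value. In this list Col3a1 had a log2 fold change of 1.50, Col1a1 of 0.92 and Pdgfrb of 0.33, and the extremes were Vtn at 2.42 and Tagln at -0.37. NC1 was the highest NC sample and HE3 the lowest HE sample for both Igf2 and this sum, while the lowest NC sample was NC3 for Igf2 and NC2 for the sum, and the highest HE sample was HE2 for Igf2 and HE1 for the sum. The summed RPKM of 12 choroid plexus markers ran from 71.7 to 223 in NC and from 27.3 to 459 in HE, with Ttr at 393 RPKM in HE1 and 8.21 RPKM in HE3. The log2 fold change of Ttr was -0.25, and the extremes of that list were Otx2 at -0.65 and Aqp1 at 0.97. HE3 was the lowest sample for both Ttr and Igf2, but it was the highest or lowest sample in 68.9% of all tested genes. In other samples Ttr and Igf2 differed in order. NC1, the highest for Igf2, had Ttr at 40.1 RPKM, and NC3, the lowest NC sample for Igf2, had it at 187 RPKM. HE1 was the highest sample for Ttr but not for Igf2. The part of choroid plexus or mesenchymal cells in the Igf2 values was not tested.

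The receptor and the adaptor differed in opposite directions by value. Igf2r encodes the receptor that takes up IGF2 for degradation and carries lysosomal enzymes. Its RPKM was 54.5, 50.5 and 63.7 in NC1, NC2 and NC3, and 51.9, 44.0 and 37.3 in HE1, HE2 and HE3. HE2 and HE3 were below all NC samples, and HE1 overlapped with NC2. HE against NC gave a log2 fold change of -0.35 ± 0.15 (adjusted p = 0.255), with a 95% interval of -0.71 to 0.02, and -0.23 without HE3.

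Grb10 encodes an adaptor that binds the insulin and IGF1 receptors and dampens their signal. Its RPKM was 16.7, 6.94 and 19.3 in NC1, NC2 and NC3, and 19.2, 16.9 and 20.5 in HE1, HE2 and HE3. The HE samples were close together and lay among NC1 and NC3 or just above, and NC2 was the only low sample. The log2 fold change was 0.52 ± 0.36 (adjusted p = 0.405). It was 0.45 without HE3. Without NC2 it was 0.06, so the difference of the means rested on that control.

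The other genes of the insulin and IGF pathway were counted beside them. Of 18 such genes tested, 9 were higher and 9 lower by value, with a median log2 fold change of -0.02, and none passed the threshold. At an unadjusted p under 0.05, 3 had higher and 2 lower values, beside 8.68% of tested genes with higher and 11.8% with lower values. The higher were the binding protein genes Igfbp2, Igfbp4 and Igfbp6, of which Igfbp2 and Igfbp4 overlapped between the groups. The lower were Insr and the RNA-binding protein gene Igf2bp2. All but Igfbp6 were named here after their values were seen. Igfbp6, a secreted binding protein that prefers IGF2, had the largest log2 fold change of the list with 1.63 ± 0.32 (adjusted p = 0.195). Its RPKM was 3.93, 1.74 and 3.47 in NC and 11.3, 9.38 and 7.10 in HE, without overlap. Igf1r, the receptor through which IGF2 signals to growth, had the smallest with -0.59 ± 0.26 (adjusted p = 0.249). Its RPKM was 8.94, 9.04 and 8.25 in NC and 6.59, 7.73 and 3.74 in HE, also without overlap. Insr, the insulin receptor gene, had a log2 fold change of -0.50 (adjusted p = 0.195), with every HE sample below every NC sample.

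**Figure D2:**
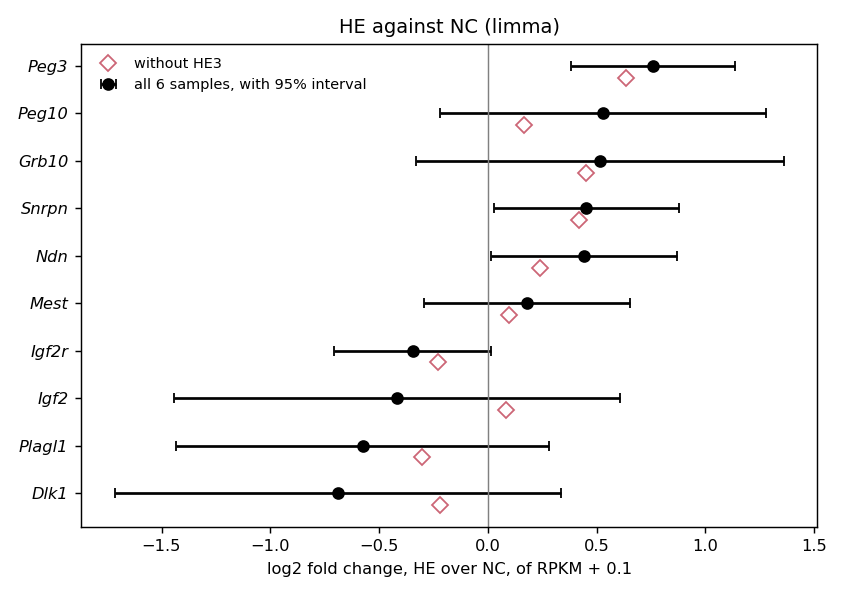
Log2 fold change of HE over NC on the RPKM + 0.1 scale (x axis) for the 10 imprinted genes (y axis), with black points and 95% intervals from all 6 samples and open diamonds for the fit without HE3. The intervals of Peg3, Snrpn and Ndn lie above 0, from 0.38, 0.03 and 0.02 upwards, and only the Igf2 diamond lies on the other side of 0 from its black point.

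Among the nuclear factors, Peg3 showed the clearest separation. Peg3 (ENSMUSG00000002265, chr7:6703892-6730462) encodes a large zinc finger protein and is paternally expressed. Its RPKM was 15.4, 18.5 and 16.0 in NC1, NC2 and NC3, and 22.9, 29.0 and 33.4 in HE1, HE2 and HE3. All HE samples were above all NC samples, and no HE sample alone carried the difference. The NC mean was 16.6 ± 1.66 RPKM (SD, n = 3) and the HE mean 28.4 ± 5.24 RPKM (SD, n = 3), a fitted fold of 1.69 and a log2 fold change of 0.76 ± 0.16 with a 95% interval of 0.38 to 1.14. The unadjusted p was 0.00195 and the adjusted p 0.195 (limma), so Peg3 did not pass the test across all genes. Without HE3 the log2 fold change was 0.64, and over the 6 fits that each left out 1 sample it was between 0.64 and 0.91. It stayed at an unadjusted p under 0.05 in 13 of 13 alternative fits, with adjusted p-values between 0.0268 and 0.502, of which the lowest came with weights per sample.

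Peg3 begins head to head with Usp29, a gene for a deubiquitinating enzyme that is also paternally expressed. The 96 bases between both annotated starts are printed because this gap serves as the upstream sequence of Peg3 and Usp29 alike. It lies at chr7:6730463-6730558 in GRCm38.p6 and was read from RefSeq on the minus strand, 5′ to 3′ toward Peg3, with each CG dinucleotide, the site of methylation, in capitals.

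Peg3 and Usp29 gap: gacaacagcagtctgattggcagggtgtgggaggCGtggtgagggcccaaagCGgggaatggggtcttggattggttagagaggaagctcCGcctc

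The gap holds 3 CG dinucleotides. Usp29 was at a far lower level than Peg3, with 0.203, 0.199 and 0.166 RPKM in NC and 0.213, 0.258 and 0.272 RPKM in HE. Its HE samples lay above its NC samples by a small margin, on 57 to 89 reads per sample. NC1, NC2 and HE1 had 69 reads each, so HE1 lay above NC1 and NC2 only through the scaling to depth. The log2 fold change of Usp29 was 0.26 ± 0.21 (adjusted p = 0.462). Zim1, a maternally expressed zinc finger gene of the same domain, had a log2 fold change of 0.27 ± 0.24 and overlapping groups. Neither neighbour was near the threshold.

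Ndn (ENSMUSG00000033585, chr7:62348277-62349928) encodes necdin, a growth suppressor of neurons and a paternally expressed gene of the Prader-Willi region. Its RPKM was 34.7, 38.5 and 33.4 in NC1, NC2 and NC3, and 41.8, 42.0 and 64.1 in HE1, HE2 and HE3. All HE samples lay above NC, HE1 and HE2 closely and HE3 far. The NC mean was 35.6 ± 2.61 RPKM and the HE mean 49.3 ± 12.8 RPKM (SD). The difference was 0.44 ± 0.18 on the log2 scale (adjusted p = 0.236). Without HE3 it was 0.24. The 250 bases upstream of Ndn, at chr7:62348027-62348276 on the plus strand, are printed to set the gene beside Igf2r, whose 250 upstream bases are at chr17:12769707-12769956 on the minus strand. These 2 genes had similar levels and opposite differences by value, and capitals again mark CG.

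Ndn upstream: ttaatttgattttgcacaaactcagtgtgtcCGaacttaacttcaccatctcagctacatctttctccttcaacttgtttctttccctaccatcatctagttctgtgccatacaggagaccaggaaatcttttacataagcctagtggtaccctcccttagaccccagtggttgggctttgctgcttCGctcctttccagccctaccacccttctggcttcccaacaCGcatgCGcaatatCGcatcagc

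Igf2r upstream: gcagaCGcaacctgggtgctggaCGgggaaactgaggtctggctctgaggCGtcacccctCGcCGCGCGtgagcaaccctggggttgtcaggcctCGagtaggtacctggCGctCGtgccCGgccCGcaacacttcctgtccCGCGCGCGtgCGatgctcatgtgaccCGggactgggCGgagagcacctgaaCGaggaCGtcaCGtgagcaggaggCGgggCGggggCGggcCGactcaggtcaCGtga

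The Ndn sequence holds 5 CG dinucleotides and the Igf2r sequence 27. Over 32851 RefSeq upstream windows of 250 bases the median was 6. Of the imprinted genes, 9 had such windows, 18 in all because some have several starts, with a median of 8. On either strand, the estrogen response element, GGTCA and TGACC with 3 bases of any kind between them, was in 0 of the 18 windows and in 0.0639% of all windows. The GC box GGGCGG was in 8 of the 18, belonging to 5 genes, and in 32.7% of all windows. Among the 8 are Mest windows that overlap almost wholly, so the same letters were counted more than once. The letters GGGGCCCC, known as a core of the site bound by the Plagl1 protein, were in 1 of the 18, that of Peg3 but outside the printed gap, and in 0.889% of all windows. The YY1 letters GCCATNTT were in 0 of the 18 and in 3.91% of all windows. These matches are letters in a window and do not show binding.

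Plagl1 encodes a zinc finger factor that acts on the cell cycle and on other imprinted genes. Its RPKM was 2.48, 3.19 and 1.37 in NC1, NC2 and NC3, and 1.60, 1.98 and 0.970 in HE1, HE2 and HE3. HE1 and HE2 lay within the wide NC range and HE3 below it. The log2 fold change was -0.57 ± 0.36 (adjusted p = 0.365), and -0.30 without HE3.

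Snrpn, Peg10 and Mest were all higher in HE by value, though on different grounds. Snrpn (ENSMUSG00000102252, chr7:59982495-60450177) encodes a protein of the splicing machinery and lies in the Prader-Willi region with Ndn. Its RPKM was 1.65, 1.91 and 1.34 in NC1, NC2 and NC3, and 2.20, 2.21 and 2.36 in HE1, HE2 and HE3. The HE samples were close together and all above NC. The NC mean was 1.64 ± 0.284 RPKM and the HE mean 2.26 ± 0.0913 RPKM (SD). The difference was 0.45 ± 0.18 on the log2 scale (adjusted p = 0.229), and 0.42 without HE3. The level stood on only 55 to 91 reads per sample. The annotation places Snurf and the long noncoding RNA Snhg14 over the same locus, Snurf was listed at 0 reads in all samples, and how reads of overlapping genes were assigned is not given in the sources used here.

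Peg10 encodes a protein derived from a retrotransposon and is needed in the placenta. Its RPKM was 3.68, 3.55 and 2.93 in NC1, NC2 and NC3, and 3.30, 4.36 and 8.19 in HE1, HE2 and HE3. HE1 was inside the NC range, HE2 just above it, and HE3 far above all others. HE against NC gave a log2 fold change of 0.53 ± 0.32 (adjusted p = 0.345) and 0.17 without HE3.

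Mest encodes a membrane protein related to hydrolases and is known as a gene of mesoderm. Its RPKM was 44.6, 29.0 and 47.3 in NC1, NC2 and NC3, and 39.8, 44.5 and 50.3 in HE1, HE2 and HE3. The groups overlapped throughout, with NC2 the lowest. The log2 fold change was 0.18 ± 0.20 (adjusted p = 0.598), with 0.10 without HE3, and without NC2 it turned to -0.04.

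**Figure D3:**
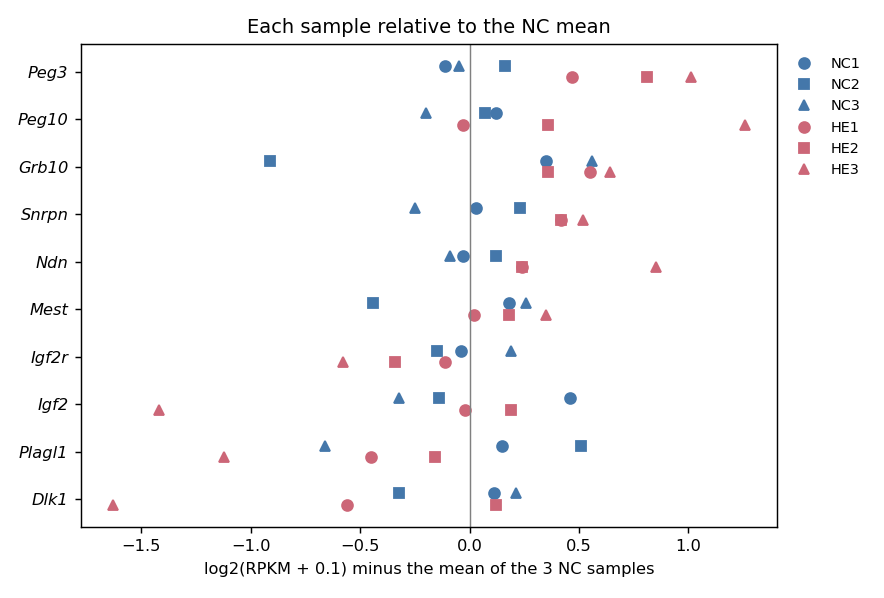
Deviation of each sample from the mean of the 3 NC samples in log2(RPKM + 0.1) (x axis) for the 10 imprinted genes (y axis), blue for NC and red for HE, with a marker shape for each sample number. HE3 ranges from -1.63 for Dlk1 to 1.26 for Peg10, while HE1 ranges from -0.56 to 0.55 and HE2 from -0.34 to 0.81.

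Relative to the NC mean on the log2 scale, HE1, HE2 and HE3 were at 0.47, 0.81 and 1.01 for Peg3, and at 0.42, 0.42 and 0.52 for Snrpn. For Ndn they were at 0.24, 0.24 and 0.85, and for Grb10 at 0.55, 0.36 and 0.64. Every HE sample lay above the NC mean in these 4 genes, and also in Mest with 0.02, 0.18 and 0.35. Every HE sample lay below it in Plagl1, at -0.45, -0.16 and -1.12, and in Igf2r, at -0.11, -0.34 and -0.58. For Igf2 they were at -0.02, 0.19 and -1.42, for Dlk1 at -0.56, 0.12 and -1.63, and for Peg10 at -0.03, 0.36 and 1.26. In these 3 genes, HE3 was far from the other HE samples and those lay on either side of the NC mean.

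Genes that share an imprinted domain with the 10 were examined next. Of 29 neighbours listed, 20 were tested, of which 9 were higher and 11 lower by value with a median log2 fold change of -0.03. None passed the threshold, and H19 and Meg3 were not analysed here. At an unadjusted p under 0.05 there was 1, beside 8.68% of tested genes with higher and 11.8% with lower values. It was Asb4, a gene near Peg10 for a subunit of ubiquitin ligases. Its RPKM was 1.07, 0.811 and 1.10 in NC and 2.54, 1.53 and 1.87 in HE, without overlap, and its log2 fold change was 0.91 ± 0.24 (adjusted p = 0.195). The other tested genes around Peg10 did not share this size. Sgce, which is paternally expressed and starts beside Peg10, had a log2 fold change of -0.02, and Ppp1r9a, Casd1, Pon2 and Pon3 had -0.23, -0.19, -0.12 and 0.15.

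In the Prader-Willi region around Snrpn and Ndn, the intronless neighbour Peg12 had a log2 fold change of 0.46 ± 0.26, with means of 9.81 ± 2.48 RPKM in NC and 13.6 ± 4.15 RPKM in HE and overlapping groups. Magel2, a relative of Ndn, was at 0.0805 to 0.389 RPKM with a log2 fold change of 0.34, and Mkrn3, which encodes a ubiquitin ligase known for the timing of puberty, had -0.19. The maternally expressed Ube3a had -0.21 with HE wholly below NC, and Atp10a -0.04. Among the paternally expressed genes of this region, Mkrn3 was thus the only one lower by value.

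Neighbours in the other domains had mixed signs. Beside Dlk1, Rtl1 had a log2 fold change of 0.12, Begain of -0.43 and Wars of 0.33. Beside Grb10, Ddc had -0.46 and Cobl -0.18. Phactr2, beside Plagl1, had -0.24 with HE wholly below NC, and Copg2, whose 3′ end overlaps that of Mest, had 0.23. Ins2 beside Igf2, and Slc22a2 and Slc22a3 beside Igf2r, had too few reads for the test.

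**Figure D4:**
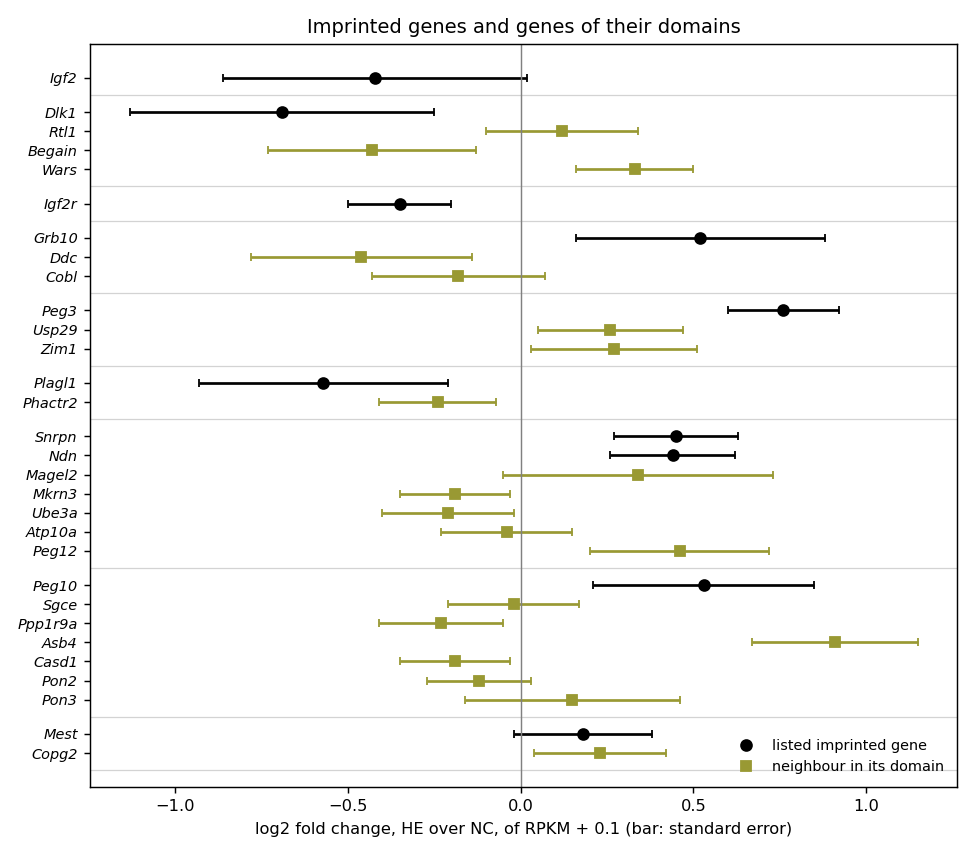
Log2 fold change of HE over NC on the RPKM + 0.1 scale with its standard error (x axis) for the 10 imprinted genes (black circles) and the 20 tested neighbours (olive squares), grouped by domain (y axis). Asb4 at 0.91 lies farthest from 0 among the neighbours, and squares lie on both sides of 0 in the Dlk1, Prader-Willi and Peg10 domains.

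Other genes known as imprinted, beyond the 10 and the neighbours listed, gave a like picture. Of 32 tested, 15 were higher and 17 lower by value, with a median log2 fold change of -0.01, and none passed the threshold. At an unadjusted p under 0.05, 6 had higher and 4 lower values, beside 8.68% of tested genes with higher and 11.8% with lower values. The higher were Dcn, Nnat and, named after their values were seen, Gatm, Nap1l5, Mcts2 and Nap1l4. Of these, Gatm had a log2 fold change of 1.33 (adjusted p = 0.195), with HE wholly above NC. The lower were Kcnk9 and, also named after their values were seen, Inpp5f, Trappc9 and Bcl2l1. The extremes were Kcnk9, a potassium channel gene, at -2.89 ± 0.82 (adjusted p = 0.195), and Dcn, for the matrix protein decorin, at 1.70 ± 0.51 (adjusted p = 0.195). Kcnk9 was at 22.3, 7.22 and 11.3 RPKM in NC and 5.68, 1.30 and 0.463 RPKM in HE, so that all HE samples were below NC. Dcn is also 1 of the mesenchymal markers above. Nnat, which encodes the small membrane protein neuronatin, was at 256, 254 and 198 RPKM in NC and 327, 303 and 291 RPKM in HE, with a log2 fold change of 0.39 ± 0.15 (adjusted p = 0.220). The cell cycle inhibitor gene Cdkn1c was at 7.40, 10.3 and 9.63 RPKM in NC and 15.3, 16.9 and 2.53 RPKM in HE. HE1 and HE2 were above all NC samples and HE3 below all, which left a log2 fold change of -0.05. Gnas, for the stimulatory G protein, had -0.29 with overlapping groups.

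Genes that act on imprints or on DNA methylation were counted last. They include DNA methyltransferases and their partners, and also the demethylase genes Tet1, Tet2 and Tet3. Of 21 tested, 11 were higher and 10 lower by value with a median log2 fold change of 0.01. At an unadjusted p under 0.05 there were 2, both with lower values, beside 11.8% of tested genes with lower values. They were the demethylase gene Tet3 and the histone methyltransferase gene Ehmt2, named after their values were seen. The maintenance methyltransferase gene Dnmt1 had a log2 fold change of 0.22 ± 0.14, and Trim28, the corepressor gene, had 0.04 ± 0.14. Zfp57, for the zinc finger protein that recruits Trim28 to imprinted regions, had the smallest with -0.70 ± 0.40 (adjusted p = 0.329), and Uhrf1, a partner of Dnmt1, the largest with 0.47 ± 0.28 (adjusted p = 0.347). For both, HE3 was the extreme sample, at 0.805 RPKM for Zfp57 against 1.72 to 3.53 RPKM in the other samples, and at 115 RPKM for Uhrf1 against 44.5 to 64.8 RPKM.

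Markers of other cell types moved with the groups to some degree. The summed RPKM of 18 neuronal markers was 129 to 167 in NC and 146 to 284 in HE, the highest being HE3, while 5 of 16 tested were higher and 11 lower by value. Tubb3 had a log2 fold change of -0.13, and the extremes were Gad1 at -1.15 and Nefl at 0.98. Of 10 endothelial markers, summed RPKM was 3.22 to 4.12 in NC and 5.00 to 6.51 in HE, and 4 of 5 tested were higher by value. Cdh5, which encodes the endothelial cadherin, was at 0.341 to 0.755 RPKM in NC and 1.66 to 2.75 RPKM in HE, the largest log2 fold change of that list with 1.69, and Flt1 had the smallest with -0.20. Of 12 microglia and macrophage markers the sum was 15.1 to 18.0 in NC and 20.5 to 47.5 in HE, and 4 of 6 tested were higher. C1qa, a complement gene, was at 0 in NC1 and NC2 and at 3.17 RPKM in HE3, and the extremes were P2ry12 at -0.10 and Lyz2 at 3.58. In the neural progenitor list, 3 of 13 were higher and 10 lower by value, from Prom1 at -0.87 to Fabp7 at 0.62. Sox2 had a log2 fold change of -0.51 with HE wholly below NC, and Nes had -0.02. Astrocyte markers were split, 6 higher and 6 lower, from Gfap at -0.86 to Gjb6 at 1.60. Of 11 oligodendrocyte lineage markers, 9 were lower, from Mag at -1.32 to Olig1 at 0.57, with Olig2 at 0.36 and a median of -0.84 that became 0.07 without HE3. All 7 tanycyte and ependymal markers were lower by value, from Rarres2 at -1.34 to Dynlrb2 at -0.03. Peg3, Ndn and Snrpn are known to be well expressed in neurons, and the part of neuronal or other cell content in their values was not tested.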

How the data were processed

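RNA-Seq of 3 HE and 3 NC samples was used. The authors filtered reads and aligned them with TopHat2 to mm10, and the processing notes also name CASAVA 1.7. The counting tool and its use of strand are not given in the sources used here, and the sequencer differs between the labels and the methods. The deposited table holds those read counts and the RPKM that the authors computed from them. The counts are written with commas between digits and were recorded as other values. They entered only the read numbers quoted, the filters, the depth, median-of-ratios scaling and voom. Tests were run on log2(RPKM + 0.1) with limma 3.58.1 (R 4.3.3), using its trend of variance on mean level, group as the only term and Benjamini-Hochberg adjustment over 13952 genes. Tested genes had 15 or more reads in total and, in 3 or more samples, no fewer than the equivalent of 10 reads at the median depth. The fit was tested on simulated data. The imprinted genes and all lists were chosen with earlier results of these data known. All 10 genes and tested neighbours are named, and of other lists the largest and smallest fold change and set markers. Read numbers are quoted as counted and carry both counting error and the spread between samples. Upstream sequences are from RefSeq for GRCm38.p6, with no window for Peg10.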

Additional observations from a re-analysis of the deposited data

How the results depend on the processing

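Of the 13 alternatives (a pseudocount of 1, median-of-ratios scaling, a filter of 1 read only, a filter of 10 reads in each sample, voom, weights per sample, the replicate block and each sample left out), none called any of the 10 imprinted genes. The direction turned in 2 of 130 fits of single genes, for Igf2 without HE3 (0.08) and for Mest without NC2 (-0.04), since each rested on that sample. Leaving out 1 sample at a time gave log2 fold changes of 0.64 to 0.91 for Peg3, 0.24 to 0.55 for Ndn, 0.33 to 0.57 for Snrpn, 0.17 to 0.81 for Peg10, 0.06 to 0.79 for Grb10, -0.04 to 0.31 for Mest, -0.72 to 0.08 for Igf2, -1.09 to -0.22 for Dlk1, -0.90 to -0.30 for Plagl1 and -0.46 to -0.23 for Igf2r. The imprinted genes at an unadjusted p under 0.05 numbered 1 to 4 (1 without NC1), and those with groups apart 3 to 5 (5 without NC3 or without HE1). Smaller groups separate more easily, and groups apart were not counted over all tested genes in these fits. The rise to 5 therefore has no background and is not read as a result about these genes. Over all genes, the fits that left out 1 sample called 0 to 103 (103 without NC3). Weights per sample, in which HE3 had a weight of 0.158, called 268. With 1 sample left out, 1342 to 3107 genes reached an unadjusted p under 0.05 (1342 without NC1, 1638 without NC2). This number was 2858 with all samples in the main fit. It was 4117 with weights per sample, 3184 with the replicate block and 3146 with the filter of 1 read only. The remaining alternatives gave 2733 to 2939. The cause of the differing counts was not tested. Ndn was at an unadjusted p under 0.05 in 8 and Snrpn in 5 of the 13. Median-of-ratios scaling moved the median of all genes from -0.06 to -0.00. Samples of the same number correlated at 0.156, 0.0869 and 0.0603 in their deviations, each above the other pairs, which is a hint from the data and not from the design. With the replicate block 2 imprinted genes were at an unadjusted p under 0.05, Peg3 and Plagl1, while Ndn and Snrpn were not, and no gene was called.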
